A study of Mus musculus with 8 samples.

Results

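The 8 genes described here encode proteins of the red cell membrane and its skeleton, together with a neighbour of one of them on chromosome 6. They were Kel, Sval1, Sptb, Ank1, Epb41, Epb42, Slc4a1 and Ermap, chosen by symbol from the 56748 genes of the expression table, and each symbol matched 1 row. The choice was made with the levels of these genes in all 4 groups in view, so their values below are a description and carry no p-value. An FPKM value (fragments scaled to gene length and library size) of at least 1 in at least 2 of 8 libraries was required for testing. Of the 8 genes, 5 passed this filter (Kel, Sval1, Ank1, Epb41 and Epb42), as did 11818 genes of the table. Sptb, Slc4a1 and Ermap did not, and Kel and Sval1 passed only through the groups in which they were high.

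RNA sequencing was performed on 32D cells, a mouse bone marrow line that the labels describe as myeloblast-like and that grows on interleukin-3. All cells had been transduced with mouse Jak2, either the wild type (Jak2WT) or Jak2V617F, the activating mutation found in myeloproliferative neoplasms. In each background, clones grown from single cells had intact glucose transporters (GLUT1/3 WT) or a CRISPR-Cas9 double knockout of Slc2a1 and Slc2a3, which encode GLUT1 and GLUT3 (GLUT1/3 dKO). The study asked what loss of glucose uptake does to each background, and 2 clones, numbered 1 and 3, represented each of the 4 groups after 24 h in a medium low in supplements. Glucose was at 5 mM in all groups, glutamine was present at 1 mM, and 2 ng/ml interleukin-3 was added. Because each library was a different clone, a difference between groups includes whatever separates the clones, and the 2 cannot be told apart.

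A red cell keeps its shape through a net of spectrin beneath the plasma membrane. Sptb encodes the beta chain of spectrin. Ankyrin, encoded by Ank1, ties the beta chain to the anion exchanger band 3, encoded by Slc4a1, and protein 4.2, encoded by Epb42, strengthens that tie. Protein 4.1, encoded by Epb41, joins the ends of spectrin to actin and to glycophorin C. Kel encodes the Kell blood group antigen, a zinc endopeptidase of the neprilysin family that is linked to the XK protein on the cell surface, and Ermap encodes the erythroblast membrane associated protein, which carries the Scianna blood group. Defects of the skeleton genes are a known cause of spherocytosis and elliptocytosis. Sval1 is not a red cell gene: it belongs to the seminal vesicle antigen-like genes, which lie beside the prolactin-induced protein gene Pip, and it is considered here for its position near Kel.

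The reads on genes ranged from 16846011 to 48884329 per library, recovered from FPKM and gene length. The label check held in every clone, since Slc2a1 was at 44.7 to 64.0 FPKM in the 4 GLUT1/3 WT libraries and at 9.17 to 17.3 FPKM in the 4 dKO libraries, and Slc2a3 was at 91.9 to 198 and 16.03 to 49.5 FPKM. Markers of several lineages were present. Of 10 granulocyte markers 6 passed the filter, with a list sum of 104 to 262 FPKM in Jak2WT, while Mpo and Elane, which mark early granulocyte precursors, did not exceed 0.0885 and 0.121 FPKM in any library. The red cell regulators Gata1 and Klf1 were at 24.9 to 58.1 and 10.8 to 23.6 FPKM in all 8 libraries.

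Sequence just upstream of the start site is shown for the genes in which it held a GATA motif, the site bound by the red cell factor GATA1, and for Sval1 as the neighbour without one. The windows are the 250 bases before the annotated start of the reference transcript in GRCm39 (mm39), the build of the data. They were searched on both strands for the GATA motif AGATAA, also with T as its first letter or G as its last, for the KLF1-type motif CCNCNCCC and for the STAT-type motif TTCNNNGAA, and matches are in capitals. Kel lies on the reverse strand, and its window is chr6:41681274-41681523. Its single GATA match starts 42 bases before the start.
Kel: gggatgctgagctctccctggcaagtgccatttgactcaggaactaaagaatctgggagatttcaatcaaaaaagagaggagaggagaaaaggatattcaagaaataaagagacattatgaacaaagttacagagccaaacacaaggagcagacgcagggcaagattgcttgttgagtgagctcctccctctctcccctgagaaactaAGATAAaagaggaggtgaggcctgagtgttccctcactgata
The window of Sval1 is chr6:41928312-41928561 on the forward strand, and none of the motifs occurred in it.
Sval1: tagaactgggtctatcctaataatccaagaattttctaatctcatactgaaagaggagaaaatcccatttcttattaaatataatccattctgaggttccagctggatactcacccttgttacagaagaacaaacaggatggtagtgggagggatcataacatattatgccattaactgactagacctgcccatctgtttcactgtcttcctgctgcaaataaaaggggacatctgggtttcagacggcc
Epb42 lies on the reverse strand, with its window at chr2:120867554-120867803 and a GATA match, read on the other strand, 31 bases before the start.
Epb42: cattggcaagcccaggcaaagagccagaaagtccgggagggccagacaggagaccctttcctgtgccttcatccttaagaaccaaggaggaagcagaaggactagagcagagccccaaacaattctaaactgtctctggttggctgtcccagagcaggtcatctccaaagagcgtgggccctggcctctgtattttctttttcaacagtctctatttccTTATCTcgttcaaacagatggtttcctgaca
The window of Slc4a1, chr11:102256107-102256356 on the reverse strand, was the one window of the 8 with all 3 motifs: a STAT match 150 bases, a KLF match 52 bases and a GATA match 9 bases before the start.
Slc4a1: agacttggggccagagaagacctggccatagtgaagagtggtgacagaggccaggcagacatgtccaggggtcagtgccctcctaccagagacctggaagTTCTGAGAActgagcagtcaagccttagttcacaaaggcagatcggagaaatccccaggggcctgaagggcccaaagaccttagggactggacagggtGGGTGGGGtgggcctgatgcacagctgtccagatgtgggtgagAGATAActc
The window of Ermap is chr4:119047209-119047458 on the reverse strand, with a GATA match 51 bases before the start.
Ermap: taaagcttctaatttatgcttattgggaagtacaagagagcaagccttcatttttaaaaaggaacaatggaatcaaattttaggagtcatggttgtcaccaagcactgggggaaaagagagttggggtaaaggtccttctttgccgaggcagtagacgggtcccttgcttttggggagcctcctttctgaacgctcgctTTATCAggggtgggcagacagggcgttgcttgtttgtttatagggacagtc
A GATA match thus occurred in 4 of 8 windows, whereas 26.1% of 21593 promoters of this length held one. KLF matches were found in 48.9% of all promoters and in the windows of Sptb (3 matches), Slc4a1 and Epb41 (20 overlapping matches in a single run of C). STAT matches occurred in 7.71% of all promoters. These matches describe the letters of the windows and say nothing of binding in these cells. The genes with a GATA match stood at different levels: Kel was the most changed of the 8, Epb42 was moderately higher in Jak2V617F clones, and Slc4a1 and Ermap were near 0. Slc4a1 had 66 of its 68 reads in Jak2V617F dKO, where Kel also peaked, and Ermap had too few reads for a pattern. Any link between the matches and expression was not tested.

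**Figure D1:**
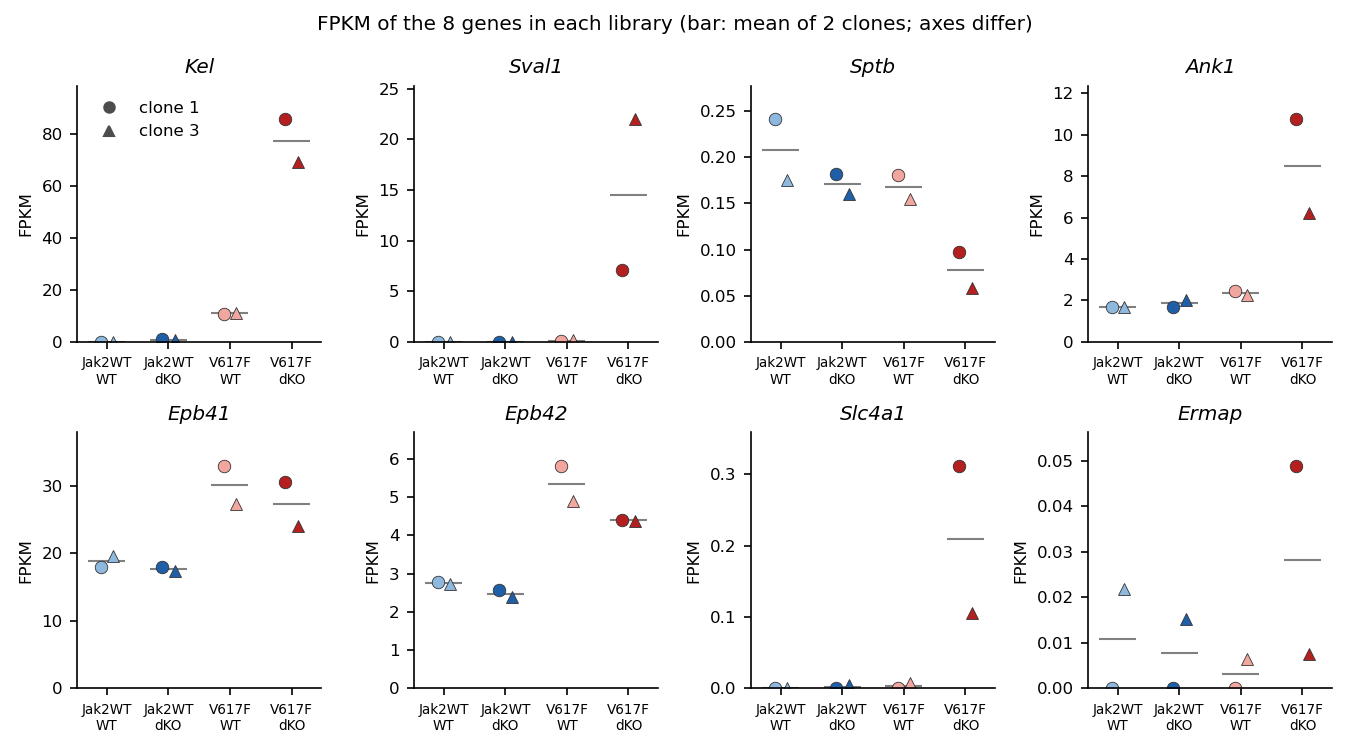
FPKM (vertical axis, from 0, scaled separately for each gene) of the 8 genes in the 4 groups (horizontal axis), with a circle for clone 1, a triangle for clone 3 and a bar for the mean of the 2 clones. Kel, Sval1, Ank1 and Slc4a1 peak in the Jak2V617F GLUT1/3 dKO clones, Epb41 and Epb42 are higher in all 4 Jak2V617F libraries than in the 4 Jak2WT libraries, and Sptb is lowest in the Jak2V617F GLUT1/3 dKO clones.

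Among the 5 genes that passed the filter, the Jak2V617F clones lay above the Jak2WT clones without overlap for all 5, both among GLUT1/3 WT and among dKO clones. This count follows from how the genes were chosen, and nothing is read from it. Over all genes tested, the clones of the groups did not overlap for 69.4% and 60.6% of genes in these comparisons (higher for 35.8% and 27.5%, lower for 33.6% and 33.1%). In dKO against GLUT1/3 WT, 3 of the 5 were higher, 1 lower and 1 overlapped in Jak2V617F, against a share of 64.3% not overlapping over all genes (29.9% higher, 34.4% lower), and 2 were higher, 2 lower and 1 overlapped in Jak2WT, against 66.2% (34.1% higher, 32.0% lower). The median log2 difference of the 5 genes was 1.47 for the knockout in Jak2V617F and 0.0 in Jak2WT, where the medians of all genes tested were -0.019 and 0.0082. It was 0.65 for Jak2V617F against Jak2WT in GLUT1/3 WT and 1.69 in dKO, beside 0.0076 and -0.023. Since the libraries are from whole cultures, more RNA per cell and more cells that express a gene cannot be told apart.

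**Figure D2:**
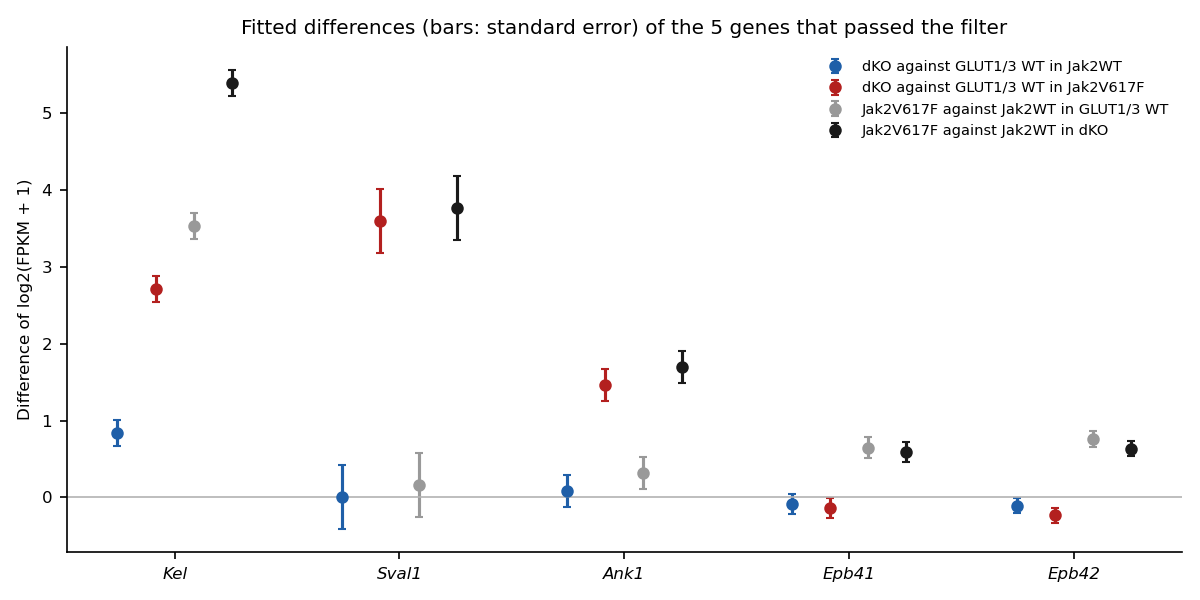
Fitted difference of log2(FPKM + 1) (vertical axis) with its standard error for the 5 genes that passed the filter, in each of 4 comparisons (colours). Kel differs in all 4 comparisons, Sval1 and Ank1 mainly where Jak2V617F GLUT1/3 dKO clones are compared, and Epb41 and Epb42 where the backgrounds are compared.

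Kel (ENSMUSG00000029866, chr6:41663264-41681273) showed the widest span of the 8 genes. In Jak2WT GLUT1/3 WT it was at 0 and 0.0624 FPKM in clones 1 and 3, which corresponds to 0 and 3 reads, and 3 reads would have been 0.0273 FPKM in clone 1. In Jak2WT dKO it was at 1.19 and 0.563 FPKM, in Jak2V617F GLUT1/3 WT at 10.8 and 11.0 FPKM, and in Jak2V617F dKO at 85.7 and 69.1 FPKM. The 4 groups were therefore fully separated in this order, with means of 0.0312 ± 0.0441, 0.875 ± 0.441, 10.9 ± 0.178 and 77.4 ± 11.7 FPKM (SD, n = 2 each). This same order without overlap was seen for 107 of the 11818 genes tested (0.905%).

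On the log2(FPKM + 1) scale, the Kel difference of dKO from GLUT1/3 WT was 0.84 in Jak2WT and 2.71 in Jak2V617F, and that of Jak2V617F from Jak2WT was 3.53 in GLUT1/3 WT and 5.40 in dKO (SE 0.17 each). From the reads, Kel was 7.20-fold higher in dKO in Jak2V617F (95% interval 6.83 to 7.59) and 41.7-fold higher in Jak2WT, where 171 reads stood against 3 and the interval was 14.0 to 204. These intervals cover counting error only, not the spread between clones. The pseudocount determined which knockout effect appeared larger. The effect in Jak2V617F exceeded that in Jak2WT by 1.87 (SE 0.24) on the log2(FPKM + 1) scale, but the sign turned with a pseudocount of 0.1 (-0.052) and in a fit of the reads with voom (-2.80).

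Sval1 (ENSMUSG00000029865, chr6:41928564-41933032, forward strand) begins 247 kb above the end of Kel. It was listed at 0 in all 4 Jak2WT libraries, where 3 reads would have been 0.099 to 0.281 FPKM. In Jak2V617F GLUT1/3 WT it was at 0.0759 and 0.164 FPKM, from 1 and 3 reads. In Jak2V617F dKO it was at 7.06 FPKM in clone 1 and 22.0 FPKM in clone 3, from 151 and 341 reads. Both dKO clones in Jak2V617F were thus far above all 6 other libraries, yet they differed widely from each other, and the order of the clones was opposite to that of Kel. Sval1 reached 8.24% of the Kel FPKM in clone 1 and 31.8% in clone 3.

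For Sval1, the reads of Jak2V617F dKO were 105-fold those of Jak2V617F GLUT1/3 WT (95% interval 40.8 to 387, counting error only) and at least 213-fold those of Jak2WT dKO, with a floor of 3 reads over that group. On the log2(FPKM + 1) scale these differences were 3.60 and 3.77 (SE 0.42). When either Jak2V617F dKO clone was left out, Sval1 no longer passed the filter, so its fitted values rest on those 2 libraries.

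**Figure D3:**
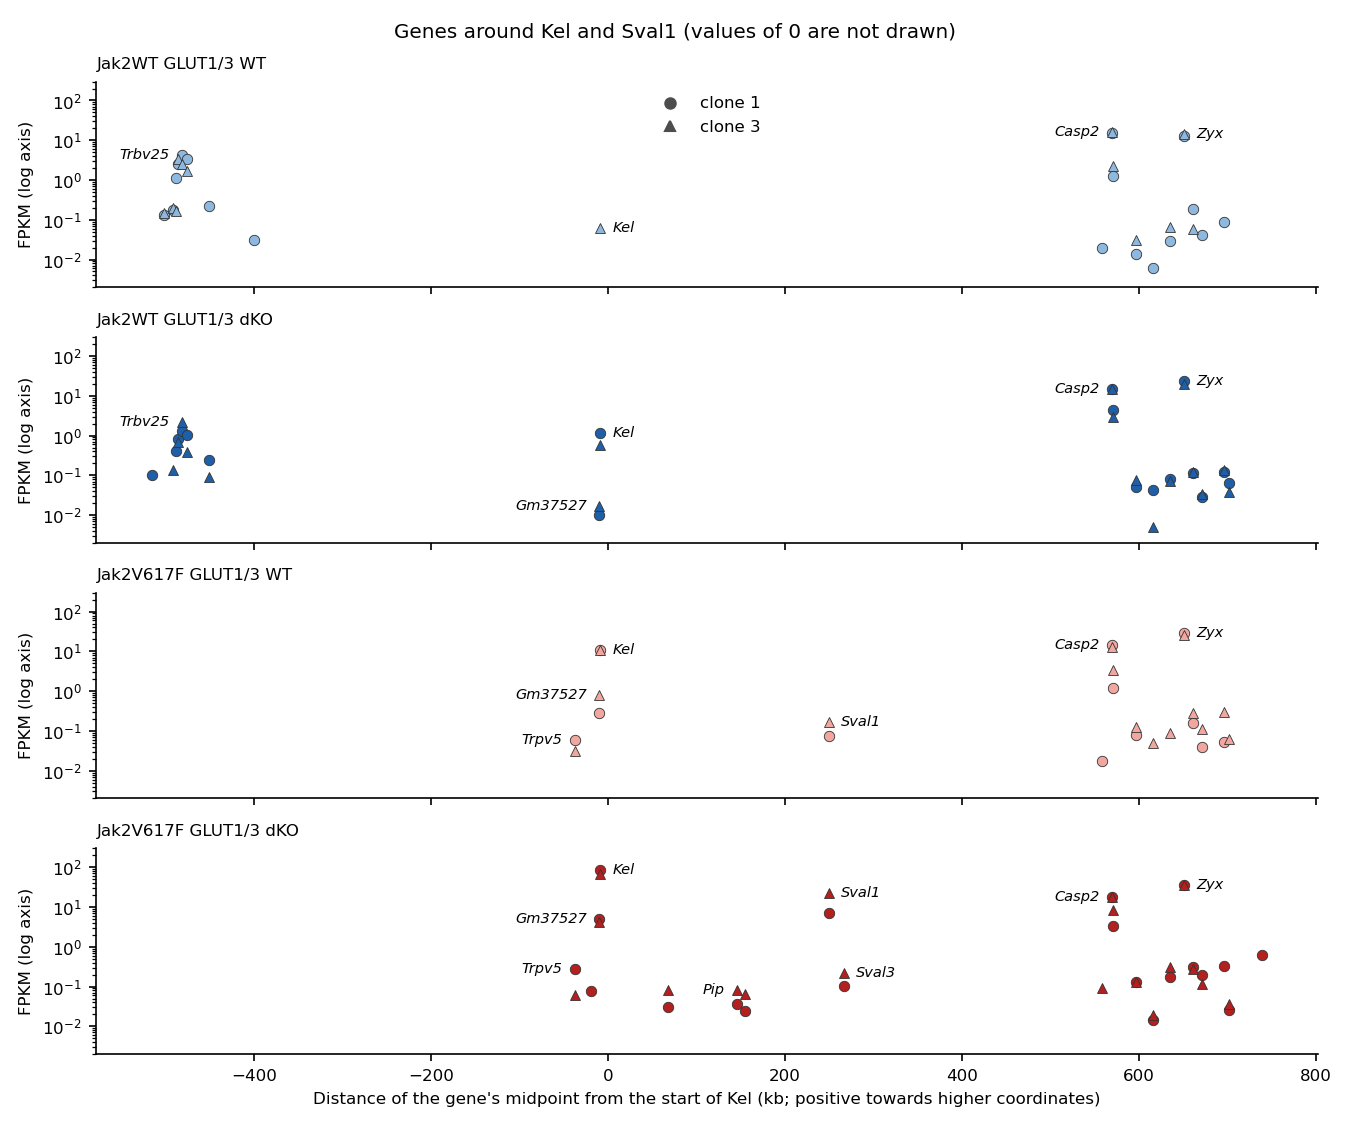
FPKM on a log axis (vertical) of genes within 500 kb of Kel and Sval1 against the distance of their midpoint from the Kel start (horizontal, kb), 1 panel per group, with circles for clone 1 and triangles for clone 3. Values of 0 are not drawn, so the span from Kel to Sval3 is empty but for Kel and Gm37527 in Jak2WT and fills with low values in Jak2V617F GLUT1/3 dKO, while Casp2 and Zyx are present in every panel.

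To see how far this pattern extended, all 78 genes of the table within 500 kb of the Kel to Sval1 span were examined, of which 30 were above 0 in at least 1 library. Directly around the 2 genes lie Trpv5, a calcium channel gene, Llcfc1, the olfactory receptor gene Olfr459, Pip, Sval2 and Sval3. None of these 6 genes had a read in the 4 Jak2WT libraries. In Jak2V617F GLUT1/3 WT, Trpv5 alone had reads, 4 and 3 in the 2 clones, and in Jak2V617F dKO the 6 genes together had 43 and 23. Trpv5 made up 31 and 5 of these reads. It lies downstream of Kel on the same strand, and whether its reads come from transcription running on past Kel was not tested. The levels of the 6 genes remained very low, with Trpv5 highest at 0.275 FPKM in dKO clone 1 and 0.0611 FPKM in clone 3, and Sval3 at 0.105 and 0.216 FPKM. Llcfc1 had 2 reads, both in dKO clone 1.

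Olfr459, Pip, Sval2 and Sval3 had reads in both Jak2V617F dKO clones and in no other library, from 1 and 2 reads for Sval2 to 4 and 8 reads for Olfr459. Of all 56748 genes in the table, 156 (0.275%) had this pattern. With so few reads, these genes were not detectable in the other libraries at this depth, which does not show that they were absent. For the neighbouring Sval1, 3 reads correspond to up to 0.281 FPKM, and this floor is lower for longer genes such as Olfr459 and Pip.

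Gm37527, a predicted transcript, lies within intron 10 of the 19-exon transcript Kel-201 and on the same strand (chr6:41669574-41673120), so its reads cannot be told apart from intronic reads of Kel. It was at 0 in both Jak2WT GLUT1/3 WT clones, at 0.00987 and 0.0172 FPKM in Jak2WT dKO, at 0.290 and 0.813 FPKM in Jak2V617F GLUT1/3 WT and at 4.90 and 4.11 FPKM in Jak2V617F dKO. Wherever both were above 0, it stood at 0.832% to 7.36% of the Kel FPKM.

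The outer genes of the window behaved differently. Besides Kel and Sval1, 7 genes of the window passed the filter, namely Gm37527, Casp2, Zyx, Trbv24, Trbv25, Trbv26 and the small nucleolar RNA ENSMUSG00002075822. In limma with Benjamini-Hochberg adjustment over all genes tested (adjusted p under 0.05), 1 of the 7 rose and 1 fell in dKO against GLUT1/3 WT in Jak2WT, where 13.7% of all genes tested were called. In Jak2V617F, 3 rose and 0 fell, beside 29.9% of all genes. For Jak2V617F against Jak2WT, 1 rose and 3 fell in GLUT1/3 WT (all genes: 30.3%), and 2 rose and 2 fell in dKO (all genes: 17.1%). Gm37527 is counted in these numbers, but it reached 1 FPKM in the Jak2V617F dKO clones alone and its reads cannot be separated from those of Kel, so its calls support nothing. Without it, Zyx and Casp2 were the genes that rose in dKO in Jak2V617F, and Zyx the gene that was higher in Jak2V617F among dKO clones.

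Zyx, which encodes the focal adhesion protein zyxin, lies about 651 kb from the Kel start. It was at 12.8 and 14.0 FPKM in Jak2WT GLUT1/3 WT, 23.2 and 20.3 in Jak2WT dKO, 29.0 and 25.4 in Jak2V617F GLUT1/3 WT, and 36.1 and 35.7 in Jak2V617F dKO, which is the group order of Kel with far smaller steps. Zyx rose in dKO by 0.66 in Jak2WT (adjusted p = 0.0101) and by 0.39 in Jak2V617F (adjusted p = 0.0253), both with clones apart and both lost when single libraries of the groups compared were left out. It was higher in Jak2V617F by 0.97 in GLUT1/3 WT (adjusted p = 0.0011) and by 0.70 in dKO (adjusted p = 0.0051). Casp2, the gene of an initiator caspase, stayed between 13.2 and 17.5 FPKM. Its rise of 0.30 in dKO in Jak2V617F (adjusted p = 0.0289, both clones apart) was lost without any 1 of 7 of the 8 libraries, with adjusted p-values up to 0.116.

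At the opposite edge of the window, pieces of the T cell receptor beta locus had reads in Jak2WT alone. Trbv24, Trbv25 and Trbv26 were at 0.387 to 4.25 FPKM in the 4 Jak2WT libraries and listed at 0 in all 4 Jak2V617F libraries. They passed the filter through Jak2WT alone, so their calls, which are counted above, support nothing either. Trbv24 was at 2.55 and 3.32 FPKM in Jak2WT GLUT1/3 WT and at 0.807 and 0.702 FPKM in Jak2WT dKO. Trbv20, Trbv21, Trbv22, Trbv23, the pseudogene Gm2719 and the trypsinogen gene Try4 also had all their reads in Jak2WT, at most 1.09 FPKM. On the side of Casp2, Tmem139, Clcn1, Fam131b, Gm44284, Epha1, 2010310C07Rik, Tas2r143 and Tas2r135 were at most 0.326 FPKM and the pseudogene Gm44470 had 3 reads in a single library. The knocked-out Slc2a3 is also on chromosome 6, but 81.0 Mb from Kel.

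Ank1 (ENSMUSG00000031543, chr8:23464860-23640513, forward strand) was low and almost even in the other groups and higher in Jak2V617F dKO. It was at 1.68 and 1.69 FPKM in Jak2WT GLUT1/3 WT, at 1.70 and 2.01 FPKM in Jak2WT dKO, at 2.43 and 2.25 FPKM in Jak2V617F GLUT1/3 WT, and at 10.7 and 6.24 FPKM in Jak2V617F dKO. The groups did not overlap at any step, although the 2 Jak2WT groups nearly touched. The dKO clones in Jak2V617F differed from each other by more than the whole span of the 6 other libraries. The fitted difference of dKO from GLUT1/3 WT was 1.47 in Jak2V617F and 0.087 in Jak2WT (SE 0.21), and with single libraries left out the value in Jak2V617F was lowest, at 1.12, without dKO clone 1. Of the short or noncoding genes that overlap Ank1, none had more than 123 reads over all libraries.

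Sptb (ENSMUSG00000021061, chr12:76627262-76757321, reverse strand), the partner of ankyrin, took the opposite course at a very low level. It was at 0.241 and 0.176 FPKM in Jak2WT GLUT1/3 WT (116 and 37 reads), at 0.182 and 0.160 FPKM in Jak2WT dKO (63 and 96 reads), at 0.181 and 0.155 FPKM in Jak2V617F GLUT1/3 WT (47 and 56 reads), and at 0.0971 and 0.0588 FPKM in Jak2V617F dKO (41 and 18 reads). The first 3 groups overlapped and the last lay below them. From the reads, Sptb in Jak2V617F dKO was 0.489-fold its level in GLUT1/3 WT (95% interval 0.349 to 0.680, counting error only). In contrast, the widely expressed beta spectrin Sptbn1 exceeded Sptb in every library, at 77.5 to 275 times its FPKM.

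Epb41 (ENSMUSG00000028906, chr4:131650724-131802632, reverse strand) was the most abundant of the 8 genes in Jak2WT. It was at 18.02 and 19.5 FPKM in Jak2WT GLUT1/3 WT, at 17.9 and 17.3 FPKM in Jak2WT dKO, at 32.9 and 27.3 FPKM in Jak2V617F GLUT1/3 WT, and at 30.5 and 24.0 FPKM in Jak2V617F dKO. All 4 Jak2V617F libraries were above all 4 Jak2WT libraries, whereas the GLUT1/3 WT and dKO clones of Jak2V617F overlapped. The fitted differences between backgrounds were 0.65 in GLUT1/3 WT and 0.59 in dKO, and those of dKO from GLUT1/3 WT were -0.09 in Jak2WT and -0.14 in Jak2V617F (SE 0.13 each).

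Epb42 (ENSMUSG00000023216, chr2:120848372-120867553, reverse strand) followed Epb41 at a lower level. It was at 2.77 and 2.72 FPKM in Jak2WT GLUT1/3 WT, at 2.57 and 2.38 FPKM in Jak2WT dKO, at 5.82 and 4.89 FPKM in Jak2V617F GLUT1/3 WT, and at 4.41 and 4.38 FPKM in Jak2V617F dKO. Again all Jak2V617F libraries were above all Jak2WT libraries, by 0.76 in GLUT1/3 WT and 0.64 in dKO (SE 0.10). Within each background the dKO clones lay just below the GLUT1/3 WT clones, by 0.11 and 0.23 on the log2 scale. The knockout effects on Epb41 and Epb42 differed between the backgrounds by -0.05 (SE 0.19) and -0.12 (SE 0.14), and the sign of both turned when libraries were scaled to the same total.

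Slc4a1 (ENSMUSG00000006574, chr11:102239650-102257029, reverse strand) was nearly absent. Both Jak2WT GLUT1/3 WT clones, Jak2WT dKO clone 1 and Jak2V617F GLUT1/3 WT clone 1 were listed at 0, and 1 read each was found in Jak2WT dKO clone 3 (0.0041 FPKM) and Jak2V617F GLUT1/3 WT clone 3 (0.0069 FPKM). In Jak2V617F dKO it was at 0.312 FPKM in clone 1 and 0.105 FPKM in clone 3, from 53 and 13 reads. The reads of Jak2V617F dKO were 56.4-fold those of Jak2V617F GLUT1/3 WT, but with 1 read in the latter the counting interval was 9.77 to 2260.

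Ermap (ENSMUSG00000028644, chr4:119032654-119047208, reverse strand) had 17 reads in all 8 libraries, 10 of them in Jak2V617F dKO. It was listed at 0 in clone 1 of each of the other 3 groups, at 0.0218, 0.0153 and 0.0063 FPKM in their clones 3, and at 0.0489 and 0.0075 FPKM in Jak2V617F dKO. The groups overlapped and no difference was detectable at this depth. Ermap lies 37.5 kb from Slc2a1, one of the edited genes.

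Tested genes whose pattern over the 8 libraries was most like that of each gene were sought by the root-mean-square difference of centred log2(FPKM + 1), given as a description. For Kel, whose own values had a root mean square of 2.45, they included Parvb (difference 0.74), which encodes the adhesion adaptor beta-parvin, and Fhip1a (0.77). Parvb was at 0.543 and 0.405 FPKM in Jak2WT GLUT1/3 WT, 2.53 and 2.49 FPKM in Jak2WT dKO, 10.2 and 7.19 FPKM in Jak2V617F GLUT1/3 WT, and 50.7 and 32.8 FPKM in Jak2V617F dKO. Its 4 groups were thus separated in the order of Kel.

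**Figure D4:**
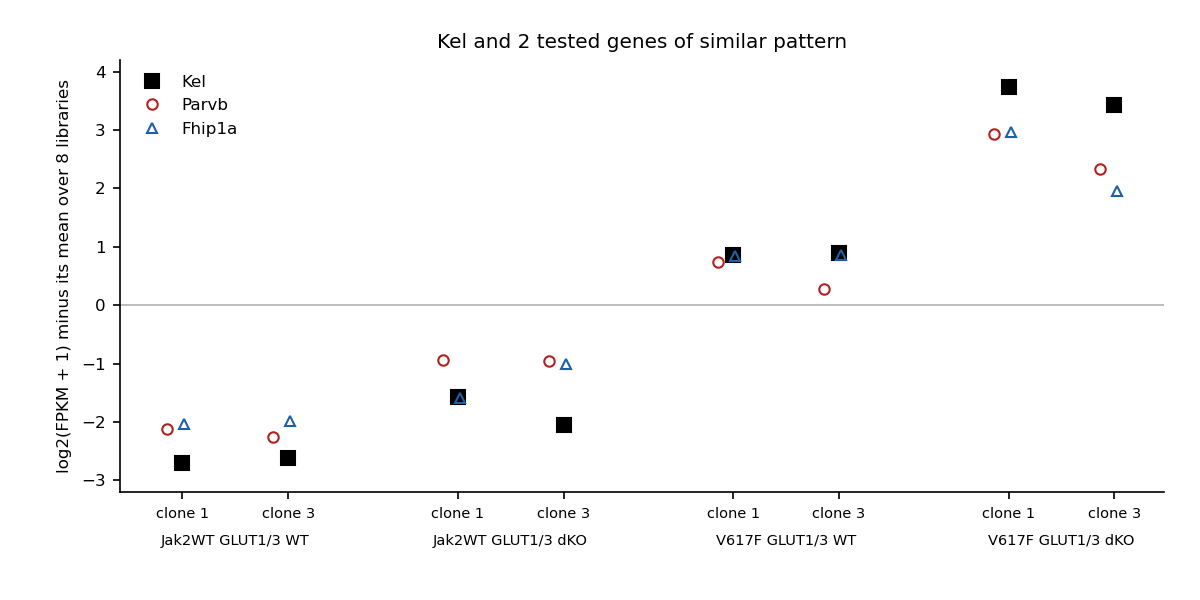
log2(FPKM + 1) minus its mean over the 8 libraries (vertical axis) in each clone (horizontal axis) for Kel (squares), Parvb (circles) and Fhip1a (triangles). All 3 genes lie below their mean in the Jak2WT clones and above it in the Jak2V617F clones, with the highest values in GLUT1/3 dKO, and Kel spans the widest range.

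For Sval1 (root mean square 1.65), the nearest patterns were those of the embryonic beta-like globin gene Hbb-bh1 (0.51), the Kel intronic transcript Gm37527 (0.79) and Irag1 (0.81). Hbb-bh1 was at 7.37 and 14.3 FPKM in Jak2V617F dKO clones 1 and 3 and did not exceed 1.52 FPKM elsewhere, so it shared with Sval1 the higher level in clone 3. For Ank1 (0.74) they were E2f2, a cell cycle transcription factor gene (0.11), Gm15232 and Pdzd2 (0.18 each), and E2f2 shared with Ank1 the higher level in clone 1, at 26.1 FPKM against 14.2 FPKM. Epb41 (0.33) was most like Ppp1r13b (0.068), Zfand4 and Pgm2, and Epb42 (0.36) was most like Zbtb38 (0.064), Enpp5 and Clint1. Sptb, Slc4a1 and Ermap varied little on this scale, which flattens values near 0, with root mean squares of 0.066, 0.13 and 0.022. The genes nearest to them were Hnrnph2, Armc8 and Ptcd3 for Sptb, Becn1, Polg and Ell for Slc4a1, and Dlg1, Ppp4r3a and U2surp for Ermap. They also varied little. For Ermap no pattern was matched, since even Dlg1 differed by 0.032. Becn1 differed from Slc4a1 by 0.025 and was likewise highest in Jak2V617F dKO, at 19.1 and 16.5 FPKM in clones 1 and 3.

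For the other 6 genes, the nearest tested gene on each side was examined. Kat6a and Gpat4 beside Ank1, Srsf4 and Ythdf2 beside Epb41, Lcmt2 beside Epb42, Ubtf and Slc25a39 beside Slc4a1, Zfp691 and Svbp beside Ermap, and Churc1 beside Sptb were called in none of the 5 comparisons. Ccndbp1, 0.987 kb from Epb42, was higher in Jak2V617F by 0.41 in GLUT1/3 WT (adjusted p = 0.0154) and 0.37 in dKO (adjusted p = 0.0341), both lost without single libraries. Plekhg3, which overlaps Sptb by 1 base on the other strand, fell in dKO in Jak2V617F (log2 -0.64, adjusted p = 0.00622) and was lower in Jak2V617F in GLUT1/3 WT (-0.97, adjusted p = 0.00155) and in dKO (-1.35, adjusted p = 0.0006). Its means fell from 8.32 FPKM in Jak2WT GLUT1/3 WT to 2.06 FPKM in Jak2V617F dKO, the direction of Sptb.

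The wider red cell membrane was followed through 38 other genes of its skeleton, transporters and blood group antigens, of which 22 passed the filter. In dKO against GLUT1/3 WT, 8 of the 22 rose and 0 fell in Jak2WT (all genes: 7.62% rose, 6.06% fell), and 6 rose and 2 fell in Jak2V617F (all genes: 13.7% and 16.2%). Their median log2 difference was 0.32 and 0.17. For Jak2V617F against Jak2WT, 8 rose and 1 fell in GLUT1/3 WT (all genes: 15.3% and 14.9%), and 8 rose and 4 fell in dKO (all genes: 7.12% and 9.96%), with medians of 0.22 and -0.020. The knockout effect differed between the backgrounds for 4, greater in Jak2V617F for 1 and lower for 3 (all genes: 4.72% and 5.91%). In all of these calls the clones of the groups were apart. The calls in Jak2WT rested on all libraries, as 2 were left without either GLUT1/3 WT clone and 3 without either dKO clone. Without Jak2V617F GLUT1/3 WT clone 3, 5 of the 8 calls in Jak2V617F were left. Of the 9 calls between backgrounds in GLUT1/3 WT, 5 were left without Jak2WT GLUT1/3 WT clone 3, and of the 12 in dKO, 7 without clone 1 of either dKO group.

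**Figure D5:**
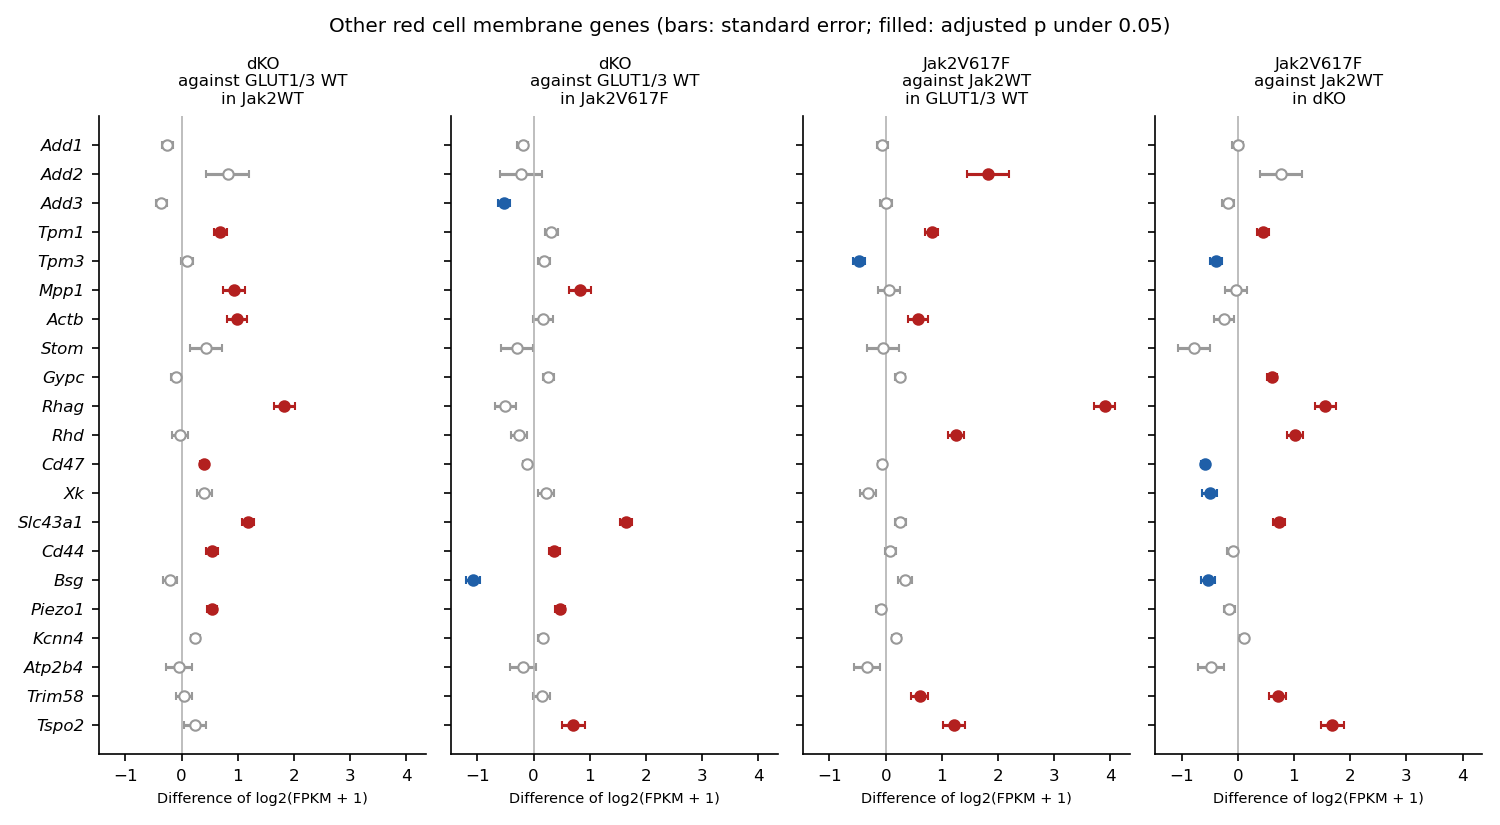
Difference of log2(FPKM + 1) with its standard error (horizontal axis) for 21 of the other red cell membrane genes that passed the filter (rows), in 4 comparisons (panels). Filled red and blue points rose and fell at an adjusted p under 0.05, and Rhag shows the largest difference between the backgrounds in GLUT1/3 WT.

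Of these genes, Rhag, the Rh-associated glycoprotein that carries ammonia and gases, differed most between the backgrounds in GLUT1/3 WT. It was at 6.18 and 10.3 FPKM in Jak2WT GLUT1/3 WT, 31.4 and 30.7 in Jak2WT dKO, 133.1 and 133.0 in Jak2V617F GLUT1/3 WT, and 89.3 and 97.3 in Jak2V617F dKO. It rose in dKO in Jak2WT (log2 1.83 ± 0.19 SE, adjusted p = 0.00373) and not in Jak2V617F (-0.51, adjusted p = 0.0787). It was higher in Jak2V617F in GLUT1/3 WT (3.90, adjusted p = 6.25e-05) and in dKO (1.56, adjusted p = 0.00271). Rhd, the Rh antigen gene, was higher in Jak2V617F by 1.25 and 1.03 (adjusted p = 0.00155 and 0.00476). Its values were 2.82 to 4.12 FPKM in Jak2WT and 7.36 to 9.90 FPKM in Jak2V617F.

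Genes that rose with the knockout in both backgrounds were Slc43a1, Cd44, Mpp1 and Piezo1. Slc43a1, an amino acid transporter gene, was at 5.10 and 5.19 FPKM in Jak2WT GLUT1/3 WT and 11.9 and 14.0 in dKO, and at 6.82 and 5.95 in Jak2V617F GLUT1/3 WT and 23.1 and 21.1 in dKO (log2 1.18 and 1.65, adjusted p = 0.00238 and 0.000359). Mpp1, which encodes the p55 partner of protein 4.1 and glycophorin C, rose by 0.94 and 0.83 (adjusted p = 0.0243 and 0.0183), Piezo1, a mechanosensitive channel gene, by 0.54 and 0.47 (0.0139 and 0.00988), and Cd44, a hyaluronan receptor gene, by 0.54 and 0.37 (0.0177 and 0.031). Except for Slc43a1 and for Piezo1 in Jak2V617F, these calls were lost without single libraries. In Jak2WT alone, calls were also made for Actb, Tpm1 and Cd47, by 0.98, 0.69 and 0.39 (adjusted p = 0.0163, 0.0126 and 0.0159), all lost without single libraries.

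In dKO in Jak2V617F, Bsg, which encodes basigin, the carrier of the Ok blood group, fell by 1.08 on the log2 scale (adjusted p = 0.00148), from 316 and 272 FPKM to 141 and 136 FPKM. Add3, an adducin gene, fell by 0.53 (adjusted p = 0.00909). Tspo2, an erythroid gene of the translocator protein family, is also counted among the calls, but it passed the filter through the Jak2V617F clones alone. It was at 0 to 0.346 FPKM in Jak2WT, at 1.45 and 1.21 FPKM in Jak2V617F GLUT1/3 WT and at 2.35 and 3.29 FPKM in Jak2V617F dKO. Between the backgrounds, Tpm1 was higher in Jak2V617F in GLUT1/3 WT by 0.82 (adjusted p = 0.00271), Actb in GLUT1/3 WT by 0.57 (0.0472), Slc43a1 in dKO by 0.73 (0.00489), Trim58 by 0.61 and 0.71 (0.0206 and 0.0193), and Add2 in GLUT1/3 WT by 1.82 (0.0112). Of these, the calls of Actb, Trim58 and Add2 were each lost with no filter on low values and without single libraries, that of Actb also under other alternatives, with adjusted p-values up to 0.266. Gypc, the glycophorin C gene, was higher by 0.61 in dKO (adjusted p = 0.006). In dKO, Cd47 was lower by 0.57 (adjusted p = 0.0029). Calls of smaller size in these comparisons are counted above and were not examined under the alternatives. Xk, the partner gene of Kel, did not exceed 3.55 FPKM in Jak2V617F and was at 3.30 to 5.19 FPKM in Jak2WT. Among dKO clones Xk was called lower in Jak2V617F (-0.50, adjusted p = 0.0456), opposite to Kel.

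The 16 genes of this list that did not pass the filter included genes of the mature red cell membrane. Dmtn did not exceed 0.0283 FPKM in any library and Tmod1 0.0219 FPKM, and Icam4, Bcam and Aqp1 were listed at 0 in all 8. Kel and Ank1 were highest in the Jak2V617F dKO clones. Slc4a1, abundant in later red cell precursors, also peaked in these clones but remained near 0. Rhag was at 89.3 and 97.3 FPKM there, below the 133.1 and 133.0 FPKM of Jak2V617F GLUT1/3 WT, although that difference was not called.

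Relatives of the 8 genes, written as a list of 37 genes of the spectrin, ankyrin, protein 4.1, anion exchanger, transglutaminase, butyrophilin, neprilysin and seminal vesicle antigen families, were counted in the same way. Of the 10 that passed the filter, 0 rose and 2 fell in dKO in Jak2WT (all genes: 7.62% and 6.06%), and 1 rose and 2 fell in Jak2V617F (all genes: 13.7% and 16.2%). Between the backgrounds, 2 rose and 2 fell in GLUT1/3 WT (all genes: 15.3% and 14.9%), and 1 rose and 0 fell in dKO (all genes: 7.12% and 9.96%). Their medians were -0.12, -0.062, -0.11 and -0.11. No call was left in Jak2WT without any 1 of its 4 libraries, 2 of the 4 between backgrounds in GLUT1/3 WT were left without Jak2WT GLUT1/3 WT clone 3, and a second was added in dKO without Jak2V617F dKO clone 3.

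The most changed relative was Tgm2, the tissue transglutaminase of the family to which protein 4.2 belongs. It was at 13.5 to 16.97 FPKM in the 4 Jak2WT libraries, at 177 and 198 FPKM in Jak2V617F GLUT1/3 WT, and at 66.4 and 44.3 FPKM in Jak2V617F dKO. It was higher in Jak2V617F by 3.54 in GLUT1/3 WT (adjusted p = 8.85e-05) and 1.71 in dKO (0.00204), and in dKO in Jak2V617F it fell by 1.77 (adjusted p = 0.00109). Tgm1, by contrast, was lower in Jak2V617F in GLUT1/3 WT (-0.67, adjusted p = 0.00626) and rose in dKO there (0.50, adjusted p = 0.0185). The nonerythroid spectrins fell with the knockout, Sptan1 in Jak2WT (-0.46, adjusted p = 0.019) and in Jak2V617F (-0.51, adjusted p = 0.00598) and Sptbn1 in Jak2WT (-0.62, adjusted p = 0.0299), and the calls in Jak2WT were lost without single libraries. Epb41l2 was lower (-0.50, adjusted p = 0.00615) and Slc4a7 higher (0.45, adjusted p = 0.0202) in Jak2V617F in GLUT1/3 WT. The calls of Slc4a7 and of Tgm1 in both comparisons were lost without single libraries. Of the neprilysin relatives of Kel, Mme and Ecel1 were listed at 0 in all 8 libraries and Ece1, Ece2, Mmel1 and Phex did not exceed 0.212 FPKM.

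Markers of other cell types also differed between the groups, and their part in the differences above was not tested. Over all genes tested, 13.7% and 29.9% were called for the knockout in Jak2WT and Jak2V617F, and 30.3% and 17.1% between the backgrounds in GLUT1/3 WT and dKO. Among 11 red cell precursor markers found in the table, 10 passed the filter, and 3 rose in dKO in Jak2WT, 7 rose and 1 fell in Jak2V617F, and 6 and 7 were higher in Jak2V617F in GLUT1/3 WT and dKO (1 and 0 lower). Their summed FPKM was 414 to 433 in Jak2WT GLUT1/3 WT, 601 to 611 in Jak2WT dKO, 827 to 1217 in Jak2V617F GLUT1/3 WT and 2929 to 5147 in Jak2V617F dKO. Most of this sum was alpha and beta globin, whose near-identical copies could share reads, whereas Alas2 did not exceed 0.227 FPKM. Of 7 megakaryocyte markers tested, 3 and 5 rose in dKO in Jak2WT and Jak2V617F and 0 fell. Between the backgrounds, 4 and 7 were higher in Jak2V617F in GLUT1/3 WT and dKO and 0 lower. The list sum rose from 65.3 to 66.0 FPKM in Jak2WT GLUT1/3 WT to 238 to 299.7 FPKM in Jak2V617F dKO, with Gp1bb listed at 0 throughout.

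Granulocyte markers went the other way between the backgrounds, with 5 of 6 lower in Jak2V617F in both GLUT1/3 WT and dKO, and a list sum of 104 to 262 FPKM in Jak2WT and 10.7 to 31.5 FPKM in Jak2V617F. In dKO against GLUT1/3 WT, 0 of the 6 were called in Jak2WT (2 at an unadjusted p under 0.05) and 1 fell in Jak2V617F. The mast cell and basophil list summed to 167 to 223 FPKM in Jak2WT and 122 to 164 FPKM in Jak2V617F, with 1 of 2 tested genes (Cpa3) lower in Jak2V617F and Kit, Prss34 and Mcpt1 listed at 0. The macrophage list summed to 21.9 to 26.4 FPKM in Jak2V617F dKO and 52.2 to 72.9 FPKM elsewhere, with 2 of 10 markers tested and C1qa, C1qc, Marco and Vsig4 listed at 0.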

How the data were processed

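Poly(A) RNA from 8 clones was sequenced, and the authors deposited 1 table of FPKM per gene with the gene length in bases. Per the submitters' processing notes and the study's methods, reads were trimmed with fastp 1.0.1, aligned to mm39 with HISAT2 2.2.1 and counted with featureCounts 2.0.6. The annotation version, the strand setting and the total used for FPKM are not given in the sources used here, so reads of overlapping genes cannot be separated.

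Reads were recovered from the steps of FPKM times length, and 100% of values were whole within 0.01 of a step. Total reads on genes (16846011 to 48884329) set the precision, and 95% intervals of read ratios and the floor of 3 reads cover counting error only. Groups follow the sample labels. The 11818 genes that reached an FPKM of 1 in 2 or more libraries were fitted with limma 3.58.1 (R 4.3.3, trended variance) on log2(FPKM + 1), with 1 mean per group, 4 residual degrees of freedom and Benjamini-Hochberg adjustment over all genes in each of 5 comparisons, including the difference between the backgrounds in the knockout effect. Folds on this scale understate changes of low genes. The fit was tested on simulated data. Clones of 1 line are the replicates, so p-values measure the spread between clones.

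The 8 genes and the lists were chosen with earlier results of these data known. Named were the 8 genes, the up to 8 called genes of largest change per comparison among the other membrane genes and the relatives, and every gene above 0 within 500 kb of Kel and Sval1. Genes of most similar pattern and the nearest tested genes were also named, and other named genes (those near 0 or not called) were picked after their values were seen. Some genes counted in the lists are not reported by name here. Alternatives were other pseudocounts, filters, scalings, voom, a block and leaving out each library. Motifs were searched in GRCm39 with GENCODE starts. Tables and figures used Python 3.11.15, pandas 2.3.3, scipy 1.17.1 and matplotlib 3.10.9.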

Additional observations from a re-analysis of the deposited data

Results flagged for a closer look

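For 6 genes of the lists, the effect of the knockout differed between the Jak2V617F and Jak2WT backgrounds by the interaction term of limma (difference of log2 effects, Benjamini-Hochberg adjusted over all genes tested, of which 10.6% were called). The effect was greater in Jak2V617F for Trbv24 by 1.16 and for the Kel intronic transcript Gm37527 by 1.83. The value of Gm37527 supports nothing: it had 0 to 3 reads per library in Jak2WT, passed the filter through the Jak2V617F dKO clones alone, cannot be separated from Kel, and its call was lost with a pseudocount of 0.1 and by voom (adjusted p = 0.557). Trbv24 had no reads in any Jak2V617F library, and it passed the filter through the Jak2WT GLUT1/3 WT clones alone, so its value supports nothing. The effect was lower in Jak2V617F for Rhag (-2.34, adjusted p = 0.00867), Tgm2 (-1.84, adjusted p = 0.0141), Bsg (-0.87, adjusted p = 0.0302) and Cd47 (-0.50, adjusted p = 0.0268). Of these, the call of Rhag held under every alternative tried. Of 14 alternatives, the call was lost under 4 for Tgm2, 7 for Bsg and 6 for Cd47.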

How the results depend on the processing

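Of 222 values of list counts under alternatives, 168 stayed within 1.5 times the reported count. Among the other red cell membrane genes, calls for the knockout in Jak2WT were 8, 5 with no filter and 2 to 10 without single libraries. In Jak2V617F they were 8, 13 by voom and 5 to 8 without single libraries. Between backgrounds they were 9 in GLUT1/3 WT (5 to 9 without single libraries) and 12 in dKO (7 to 14), and for the interaction 4 (7 by voom, 1 to 4). Among the relatives, they were 2 in Jak2WT (1 with no filter, 4 by voom, 0 to 3 without single libraries), 3 in Jak2V617F (2 to 4), 4 between backgrounds in GLUT1/3 WT (2 to 4), 1 in dKO (2 by voom, 1 to 2), and 1 for the interaction (0 with no filter, 3 at the same total, 4 by voom, 0 to 2). In the Kel neighbourhood, they were 2 in Jak2WT (1 with a pseudocount of 0.1, 0 to 2 without single libraries), 3 in Jak2V617F (1 with only the groups compared, 0 to 3), 4 between backgrounds in GLUT1/3 WT (3 to 5), 4 in dKO (2 to 4), and 2 for the interaction (0 with a pseudocount of 0.1, 1 by voom, 0 to 1). The causes were not tested.

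For single genes of the lists, 152 of 984 values lost a call (32 of 67 results, adjusted p 0.0503 to 0.557), most often without a Jak2WT GLUT1/3 WT clone, and 0 reversed. Of 360 values of the 8 genes, 10 changed sign, in the interactions of Kel (-0.052 with a pseudocount of 0.1, -2.80 by voom), Epb41 and Epb42 and in the knockout difference of Epb41 in Jak2V617F (0.026 without dKO clone 3). Sval1 gave no value without either Jak2V617F dKO clone.

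Clone numbers are shared between the groups, and the study describes the clones as independent. Deviations of same-numbered clones correlated at -0.25 to 0.15 over 6 pairs of groups, so the numbers do not pair the samples. Within each background, however, the study lists the same length of Slc2a1 deletion for all dKO clones. Whether these clones share an edited ancestor was not tested, and the spread between related clones could be too small. With the clone number as a replicate block, calls in the order of the 5 comparisons were 9, 8, 9, 11 and 4 for the other membrane genes, 2, 4, 4, 1 and 1 for the relatives, and 3, 3, 4, 4 and 1 for the Kel neighbourhood.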
